A study of Mus musculus with 12 samples.

Results

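The H3K4me2 and H3K4me3 peak lists of mouse fetal liver were compared with each other, region by region. Members were all peaks on chromosomes 1 to 19, X and Y of the 2 H3K4me2 libraries and the 2 H3K4me3 libraries, 115012 of the 353805 peaks in the 11 peak lists of the series. The H3K4me2 lists held 42334 peaks in replicate 1 and 41765 in replicate 2, and the H3K4me3 lists 14027 and 16886. The livers were from C57BL/6 embryos of embryonic day 14.5, carried no stated allele or treatment, and were used whole, as a mixture of blood-forming and other liver cells. For comparison, 3 H3K4me1 and 2 H3K27ac libraries of the same tissue and 2 ATAC-seq libraries of proerythroblasts, early red cell precursors that are only some of the cells of the liver, were laid over these regions. The labels do not say whether replicates came from separate litters, so the spread between them may be technical.

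Lysine 4 of histone H3 can carry 1, 2 or 3 methyl groups, which are placed step by step by methyltransferases of the SET1 and MLL family. H3K4me3 lies mainly around the starts of active or poised genes, H3K4me1 is typical of enhancers and promoter flanks, and H3K4me2 is found at both. At promoters the states are commonly arranged in layers, with H3K4me3 nearest the start site and the less methylated states farther out. H3K27ac marks active promoters and enhancers, and ATAC-seq reads accessible chromatin.

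Limits of the material bear on all results. For H3K4me2 the labels name an Abcam antibody (ab7766) in the sample characteristics and a Millipore antibody (07-030) in the protocol, so which of them gave the H3K4me2 lists is unsettled. For H3K4me3 the catalogue number of the Active Motif antibody also differs between these fields. The lists hold no read counts, so depth is unknown, and an end of a peak is where the caller stopped. Peaks were called in each library separately, and H3K4me2 covered 85.0 and 92.1 Mb in replicates 1 and 2 against 25.8 and 33.4 Mb for H3K4me3. Positions are in the mouse build mm9, no gene annotation of that build was used, and the tissue was therefore not checked against marker genes. In a mixed tissue, a region with both marks in the same cells and one with each mark in different cells cannot be told apart.

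Nearly every H3K4me3 peak lay wholly inside a single H3K4me2 peak. Each of the 2 H3K4me2 lists was set against each of the 2 H3K4me3 lists, which gave 4 pairs of libraries. With H3K4me2 replicate 1, 98.1% of the peaks of H3K4me3 replicate 1 and 95.9% of those of replicate 2 had both ends inside 1 H3K4me2 peak. With H3K4me2 replicate 2 the shares were 96.8% and 93.2%. All 4 values thus lay above 93%, and the mean was 96.0% ± 2.03 (SD over the 2 H3K4me3 libraries, each averaged over its 2 pairs). In sequence, 99.3% ± 0.337 of the bases under H3K4me3 peaks were also under H3K4me2 peaks, which covered 3.45% of the span of the chromosomes. The reverse share was lower, since 33.3% (27.8% to 39.1% over the 4 pairs) of the bases under H3K4me2 were under H3K4me3.

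The few H3K4me3 peaks that were not enclosed mostly crossed 1 end of an H3K4me2 peak. Such peaks made up 2.85% ± 1.62 of each H3K4me3 list, while 0.257% reached past both ends of an H3K4me2 peak and 0.133% met several H3K4me2 peaks. Only 0.758% ± 0.185 met no H3K4me2 peak, 60, 84, 116 and 216 peaks in the 4 pairs. These peaks were weak and narrow. Their median fold enrichment, the authors' value over the caller's background, was 3.24, 3.29, 3.27 and 3.19 in the 4 pairs, against 7.08, 6.54, 7.10 and 6.63 for the other peaks of the same lists. Their median width was 502 to 774.5 bp against 1607 to 1699 bp.

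Across the whole H3K4me3 lists, enclosure was also more frequent among stronger peaks. In the lowest quartile of fold enrichment 92.7% of peaks were enclosed and 2.39% met no H3K4me2. In the highest quartile 98.4% were enclosed and none met no H3K4me2, in all 4 pairs. Of the 13600 H3K4me3 regions found in both H3K4me3 libraries (consensus regions, merged stretches with a peak of every library), 26 lay outside every H3K4me2 peak. The strongest of the 26, chr12:60196714-60197490, had a fold enrichment of 3.27 in H3K4me3 replicate 1 and 5.58 in replicate 2. The next was chr6:3937432-3938862, at 4.30 and 4.14, followed by chr5:66444744-66445625, at 3.68 and 4.45. The last of the 5 highest were chr3:129539637-129540930, at 4.16 and 3.86, and chr17:12571533-12572906, at 3.98 and 3.68. None of these 5 met a consensus region of H3K4me1, H3K27ac or ATAC.

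H3K4me1, the other mark that surrounds H3K4me3, enclosed it less often in these lists. The H3K4me1 libraries enclosed 64.7%, 35.2% and 51.4% of H3K4me3 peaks, averaged over the 2 H3K4me3 lists, and the H3K4me2 libraries 97.0% and 95.0%. All H3K4me2 values lay above all H3K4me1 values, with a difference of means of 45.6 percentage points, or 73.3 at a −log10 q of at least 5. A two-sided exact permutation test over the 5 libraries gave p = 0.2, the smallest p that the test used here allows for 3 libraries against 2. H3K4me1 peaks covered 91.5 to 131 Mb, against 85.0 and 92.1 Mb for H3K4me2. The H3K4me1 lists were weaker, with a median fold enrichment of 2.68, 2.57 and 2.57 against 3.67 and 3.20. The threshold on q was reached by 27.1%, 13.9% and 24.5% of H3K4me1 peaks and by 60.2% and 50.5% of H3K4me2 peaks. The part of this in the differences of enclosure was not tested.

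The 2 marks lay differently over the ends of H3K4me3 peaks. Points inside an end were read only in wide H3K4me3 peaks, of at least 2 kb, and points at or outside an end in all peaks. Values inside and outside are therefore not of the same peaks. At 1 kb inside the end, 99.7% ± 0.164 (SD over 2 libraries) of points were under H3K4me2. H3K4me1 covered 63.3% ± 15.0 (SD over 3 libraries) of the same points. Among the points inside wide peaks, H3K4me1 cover was highest 250 bp from the end, at 90.8% ± 5.93, in each of the 3 H3K4me1 libraries. No point nearer the end was read in wide peaks alone. Over all H3K4me3 peaks, H3K4me2 cover was 97.5% ± 0.983 at the end itself. It fell to 59.7% ± 0.497 at 500 bp outside and 34.1% ± 2.48 at 1 kb, and levelled near 14.9% ± 1.52 at 5 kb. H3K4me1 cover decreased less steeply, from 77.0% ± 8.81 at the end to 38.1% ± 5.85 at 1 kb and 20.5% ± 3.29 at 5 kb. H3K27ac cover within wide peaks fell from 81.9% ± 3.18 at 1 kb inside to 58.4% ± 4.73 at 250 bp inside. Over all peaks it was 33.9% ± 3.43 at the end and 16.7% ± 1.71 at 1 kb outside. ATAC cover in proerythroblasts was 46.4% ± 3.74 at 1 kb inside wide peaks and 0.282% ± 0.174 at 1 kb outside all peaks.

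**Figure D1:**
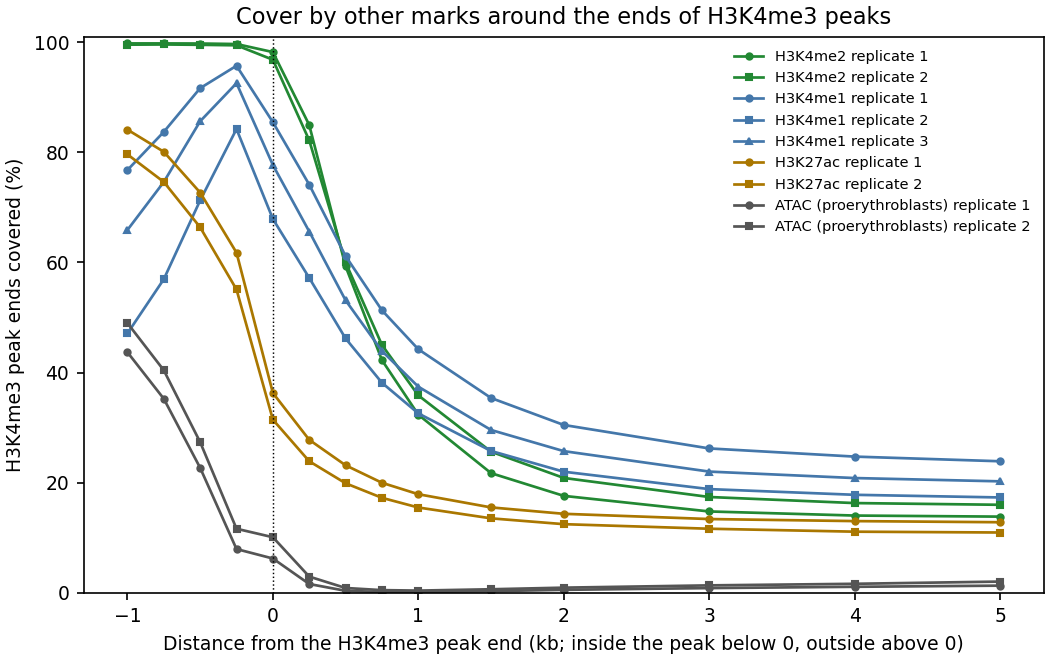
Percent of H3K4me3 peak ends (y axis) covered by a peak of each other library, against the distance from the end in kb (x axis, negative values inside the H3K4me3 peak), 1 line per library, each averaged over the 2 H3K4me3 lists and both ends. The 2 H3K4me2 lines stay near 100% up to the end and fall to about 34.1% at 1 kb outside, while the 3 H3K4me1 lines peak 250 bp inside the end.

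The H3K4me2 that reached beyond H3K4me3 was, at the median, nearly as long as the H3K4me3 peak itself. Flanks were measured where an H3K4me2 peak enclosed exactly 1 H3K4me3 peak and met no other, which gave 12095 to 14519 regions a pair. The median total flank, left plus right, was 1556 bp for H3K4me2 replicate 1 with H3K4me3 replicate 1 and 1185 bp with H3K4me3 replicate 2. With H3K4me2 replicate 2 the medians were 1612 and 1272 bp. Both pairs with H3K4me3 replicate 2 had shorter flanks than both pairs with replicate 1, and the mean was 1406 bp ± 251 (SD over the 2 H3K4me3 libraries). The H3K4me3 peak took up a median of 53.4% ± 5.58 of the H3K4me2 peak's width.

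The flank depended on where each library's peaks ended. At matched regions, H3K4me3 peaks of replicate 2 began a median of 131 bp earlier and ended 136 bp later than those of replicate 1. The ends of H3K4me2 peaks moved by 7 bp on each side between its replicates in the same sense. Without regard to direction, an end moved by a median of 96 bp between the H3K4me2 libraries and 153 bp between the H3K4me3 libraries. Median total flanks are therefore several times the spread of an end. A difference between the 2 flanks of a region depends on both ends of both peaks, so its spread can exceed that of a single end. The part of these wider H3K4me3 peaks in the shorter flanks of replicate 2 was not tested.

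Flanks were unequal on the 2 sides of most H3K4me3 peaks. The shorter side had a median of 386 bp ± 78.0 and the longer side 962 bp ± 169. The longer side was at least 2 times the shorter in 56.2% ± 1.39 of regions and at least 5 times in 18.7% ± 2.27, and the sides were within 1.5 times of each other in 26.9% ± 0.813. As a single measure, the difference of the sides divided by their sum (0 for equal sides, 1 for a one-sided flank) had a median of 0.369, 0.391, 0.376 and 0.396 in the 4 pairs. The 4 values lay close together, with a mean of 0.383 ± 0.0152. Both sides exceeded 1 kb in 11.2% ± 2.60 of regions, and in 6.87% ± 4.47 the shorter side was under 100 bp.

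Left and right, in the direction of the chromosome's coordinates, differed little. The right flank was the longer in 51.0%, 50.3%, 50.9% and 50.5% of regions in the 4 pairs. The median right flank exceeded the median left flank by 14 to 19 bp, in each of the 4 pairs. A single end moved by a median of 96 bp (H3K4me2) or 153 bp (H3K4me3) between replicates, without regard to direction. That movement is not the error of a difference of medians, and the small offset was not tested. Left and right flanks of the same region were only weakly related, with a Spearman correlation of 0.144 (0.0458 to 0.251 over the 4 pairs, 12095 to 14519 regions each). That value describes regions of the same 2 libraries, which are not independent replicates.

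The side with the longer flank was mostly the same in libraries that shared nothing. The labels' titles carry tags, 3-18 for H3K4me2 replicate 1 and H3K4me3 replicate 2 and 3-25 for the other two libraries, and what the tags stand for is not stated. Between the pair with the first tag and the pair with the second, 11380 regions could be matched. Of these, 78.0% had the longer flank on the same side in both pairs. The share grew with the size of the difference. It was 58.6% where the sides differed by under 200 bp in the first pair, 75.9% at 200 to 500 bp, 87.2% at 500 to 1000 bp and 93.3% at 1000 to 2000 bp. Where the sides differed by 2000 bp or more it reached 97.4% of 954 regions. With both sides equally likely 50% would be expected, so the sides of nearly equal flanks were little reproduced and those of very unequal flanks almost always were. Pairing the libraries by replicate number gave 78.2% of 11146 regions.

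**Figure D2:**
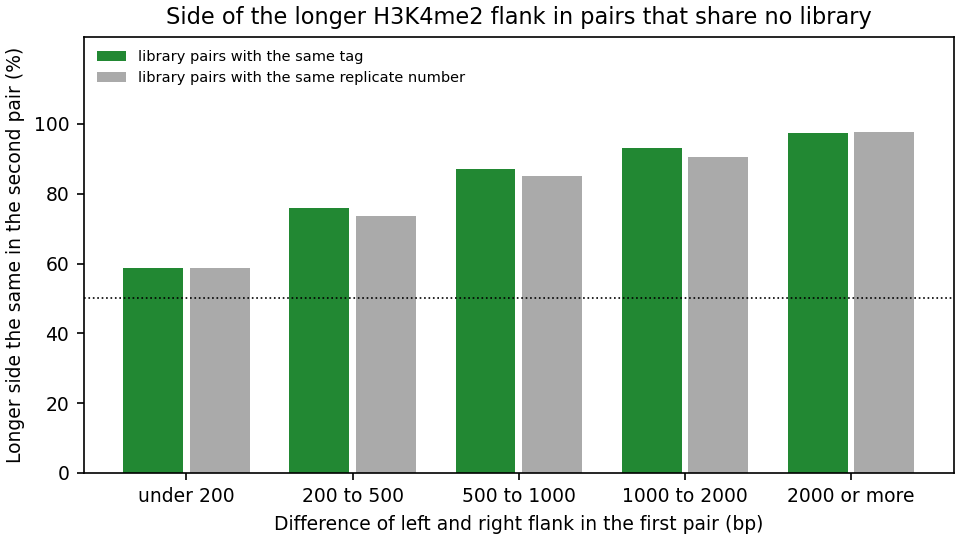
Percent of regions (y axis) whose longer H3K4me2 flank was on the same side in 2 pairs of libraries that share no library, by the difference of the flanks in the first pair in bp (x axis), with libraries paired by title tag (green) or by replicate number (grey). The dotted line is at 50%, and the bars rise from 58.6% to 97.4% for the tag and 97.8% for the number.

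Wider H3K4me3 peaks carried longer and more unequal H3K4me2 flanks. The median longer side was 666 bp ± 86.3 around H3K4me3 peaks under 1 kb, 808 bp ± 170 at 1 to 2 kb, 1185 bp ± 280 at 2 to 3 kb, 1732 bp ± 444 at 3 to 5 kb and 2534 bp ± 548 at 5 kb or more. The shorter side changed less, from 344 bp ± 64.7 and 339 bp ± 79.9 in the 2 narrowest classes to 714 bp ± 116 in the widest. The median asymmetry rose from 0.304 ± 0.0154 in the narrowest class to 0.485 ± 0.0125 in the widest. In both pairs with H3K4me2 replicate 2 it was lower in the widest class (0.452 and 0.476) than at 3 to 5 kb (0.462 and 0.484). The longer side is the larger of the 2 flanks by definition, and no reference for flanks that vary separately was made. The order of the longer side over the 5 classes held in each of the 4 pairs. Across regions the Spearman correlation of H3K4me3 width with total flank was 0.371 (0.325 to 0.420 over the 4 pairs), a description of regions that share their libraries.

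**Figure D3:**
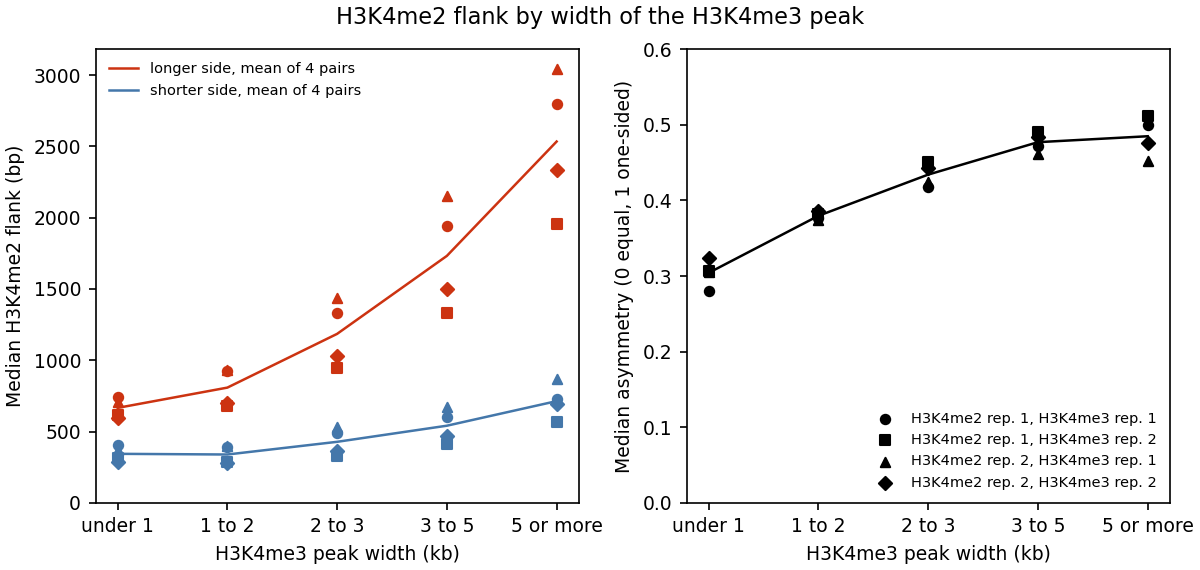
Median H3K4me2 flank in bp (left panel, longer side red and shorter side blue) and median asymmetry of the flanks (right panel) by width class of the H3K4me3 peak in kb. Each symbol is 1 of the 4 pairs of libraries and lines are their means, which rise on the longer side from 666 to 2534 bp and in asymmetry from 0.304 to 0.485.

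Strong H3K4me3 peaks had long flanks too, and the weakest had longer flanks than the next class. By quartile of H3K4me3 fold enrichment, from low to high, the median total flank was 1238 bp ± 118, 1078 bp ± 209, 1395 bp ± 319 and 1865 bp ± 348. The peaks themselves had median widths of 661, 1221, 2031 and 2676 bp in these quartiles. H3K4me3 therefore took up 33.0% of the H3K4me2 peak in the lowest quartile and 58.1% in the highest. Asymmetry was 0.313 in the lowest quartile and 0.474 in the highest.

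The nearest 500 bp of the longer and shorter flank carried nearly the same other marks. Regions whose longer flank was at least 2 times the shorter, with both at least 500 bp, were used. H3K4me1 covered 91.7% ± 3.92 (SD over 3 libraries) of these bases on the longer side and 87.5% ± 6.60 on the shorter, a difference of 4.27 percentage points ± 2.71 that was positive in 3 of 3 libraries. H3K27ac covered 49.8% ± 4.16 and 45.5% ± 3.65 (SD over 2 libraries), a difference of 4.25 points ± 0.509, positive in 2 of 2. ATAC covered 4.00% and 3.64%. These differences over 3 and 2 libraries were not tested.

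The regions with the largest flanks were wide H3K4me2 stretches. They were chosen for holding 1 consensus H3K4me3 region, so further peaks of a single H3K4me3 library could lie in their flanks. Of the 6 named, 5 were also chosen for the largest difference of flanks, so that H3K4me3 near 1 end follows from the choice. The largest difference of flanks was at chr6:38792623-38829448, a consensus H3K4me2 region of 36.826 kb with 1 consensus H3K4me3 region of 5813 bp, chr6:38821774-38827586, close to its right end. In the 4 pairs the left flank was 15646, 14544, 30253 and 29151 bp and the right flank 1781, 1860, 1862 and 1941 bp. The left flank was thus the longer in every pair. Its length turned on H3K4me2 replicate 1, which split the region into 3 peaks where replicate 2 had 1. H3K4me1 covered 94.6%, 94.0% and 94.7% of the region in its 3 libraries and H3K27ac 81.5% and 79.9%. ATAC replicate 1 had 1 peak there, and replicate 2 had 2.

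Other regions chosen by this rule had H3K4me3 near the left end. At chr16:49852096-49883650 (31.555 kb) the left flank was 1406, 916, 1399 and 909 bp in the 4 pairs and the right flank 7485, 7609, 23213 and 23337 bp. At chr11:23973382-24004288 (30.907 kb) the left flank was 383 to 399 bp and the right flank 5877 bp with H3K4me2 replicate 1 and 20376 bp with replicate 2. At chr13:35831365-35861892 (30.528 kb) the left flank was 479 to 846 bp and the right 1820 and 1364 bp with H3K4me2 replicate 1 and 26292 and 25836 bp with replicate 2. In these 3 regions the longer side was the same in all 4 pairs, and its length was again shorter in H3K4me2 replicate 1. H3K4me3 replicate 2 had 2 peaks in each of the 3. They covered more than the consensus H3K4me3 region, so the flanks given were not free of H3K4me3. Replicate 1 had 2 peaks in the region on chromosome 13 and 1 in the others.

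The remaining 2 regions with the largest flanks differed more between libraries. At chr6:119954205-119993268 (39.064 kb), H3K4me2 replicate 1 had 4 peaks and replicate 2 had 2. The left flank there was 28698 bp in the merged region and 3661, 2100, 5259 and 3698 bp in the 4 pairs, still longer than the right flank of 737, 537, 2716 and 2516 bp. H3K4me3 replicate 1 had 1 peak there and replicate 2 had 3, which covered more than the consensus H3K4me3 region. At chr18:67713534-67739197 (25.664 kb), H3K4me3 replicate 1 had 1 peak and replicate 2 had 4, so H3K4me3 of replicate 2 also lay in the flanks. The consensus H3K4me3 region was found inside rather than at the end, and was weak, with a fold enrichment of 3.09 and 3.82 in its 2 libraries. Its left flank was 1598, 1375, 7073 and 6850 bp in the 4 pairs and its right flank 3722, 3186, 17997 and 17461 bp. The lower values were those of H3K4me2 replicate 1, which split the region into 5 peaks. The region was under H3K4me1 throughout in all 3 libraries.

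The strongest enclosed H3K4me3 peaks had flanks of several kb as well. At chr10:115251793-115260329 (8.537 kb), the H3K4me3 fold enrichment was 22.5 in replicate 1 and 34.9 in replicate 2, and both flanks were long, 1336 to 1779 bp on the left and 2301 to 3070 bp on the right. At chr16:32607123-32625705 (18.583 kb) the fold enrichment was 20.3 and 27.1, the left flank 523 to 1004 bp and the right flank 6573 to 10399 bp. At chr11:86158811-86172659 (13.849 kb) it was 20.7 and 25.5, the left flank 5697 to 9460 bp and the right flank 552 to 672 bp. The regions on chromosomes 16 and 11 were one-sided in every pair, and the region on chromosome 10 was not.

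A small share of H3K4me2 peaks held several separate H3K4me3 peaks. Among H3K4me2 peaks that met H3K4me3, 4.71%, 4.85%, 5.22% and 5.72% met 2 or more in the 4 pairs, from 625 to 893 peaks. The mean was 5.13% ± 0.485 (SD over the 2 H3K4me2 libraries), and 2.70% when peaks of both marks needed a −log10 q of at least 5. Most of them held 2 (638 a pair on average), fewer held 3 (80.8) and fewer still held 4 or more (24.8), with at most 5, 7, 10 and 8 in the 4 pairs. They were wide, at a median of 10525 bp ± 1043, where H3K4me2 peaks with a single H3K4me3 peak measured 3163 bp ± 60.1.

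H3K4me3 peaks that shared an H3K4me2 peak were, on the whole, weaker than lone ones. Their median fold enrichment was 4.79 ± 0.306 (SD over the 2 H3K4me3 libraries) against 7.08 ± 0.288 for H3K4me3 peaks alone in their H3K4me2 peak, while their widths were alike, 1724 bp ± 43.7 against 1646 bp ± 59.8. Where there were exactly 2, the stronger had a median of 2.09 ± 0.0976 times the fold enrichment of the weaker. The wider had a median of 2.61 times the width of the narrower. Both ratios set the larger over the smaller by definition, and were not compared with those of other H3K4me3 peaks.

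The gap between neighbouring H3K4me3 peaks in an H3K4me2 peak was a median of 2302 bp ± 184 wide. No gap was under 942 bp in H3K4me3 replicate 1 or 991 bp in replicate 2, which are also the smallest gaps between any peaks of these lists. Gaps of H3K4me3 replicate 1 were covered by a single peak of replicate 2 in 25.8% and 22.5% of cases (with H3K4me2 replicates 1 and 2), and those of replicate 2 by a peak of replicate 1 in 0.543% and 0.457%. Part of the separate H3K4me3 peaks of replicate 1 were thus joined in the list with more and wider peaks. H3K4me1 covered more of the gap bases than of the H3K4me3 bases beside them, 95.9% ± 3.21 against 82.4% ± 6.61 (SD over 3 libraries), by 13.5 points ± 3.41 and in 3 of 3 libraries. H3K27ac covered less of the gaps, 70.3% ± 3.37 against 84.8% ± 2.42, in 2 of 2 libraries. ATAC peaks covered 1.55% ± 0.724 of gap bases and 21.8% ± 3.79 of the H3K4me3 bases.

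The consensus H3K4me2 region with the most H3K4me3 was chr13:23606639-23681552, 74.914 kb long, with 8 consensus H3K4me3 regions. H3K4me2 was 1 peak in replicate 2 and 4 peaks in replicate 1, and the H3K4me3 libraries had 10 and 8 peaks, which covered 60.4% and 71.5% of the region. Accessible sites were many, 17 ATAC peaks in replicate 1 and 21 in replicate 2, and H3K27ac covered 90.2% and 88.4%. The next, chr2:152608357-152658009, was 49.653 kb long with 5 and 6 H3K4me3 peaks in the 2 H3K4me3 libraries, which covered 23.0% and 31.6%, and with 7 and 8 ATAC peaks. A further 10 regions held 4 consensus H3K4me3 regions each. The first 3 of these in chromosome order, a choice among ties, were chr1:82809839-82847129 (37.291 kb, 5 and 4 H3K4me3 peaks), chr1:134255175-134289400 (34.226 kb, 4 and 4) and chr5:114420711-114444703 (23.993 kb, 4 and 4). Among these 5 named regions, only in the last was H3K4me2 a single peak in both libraries.

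**Figure D4:**
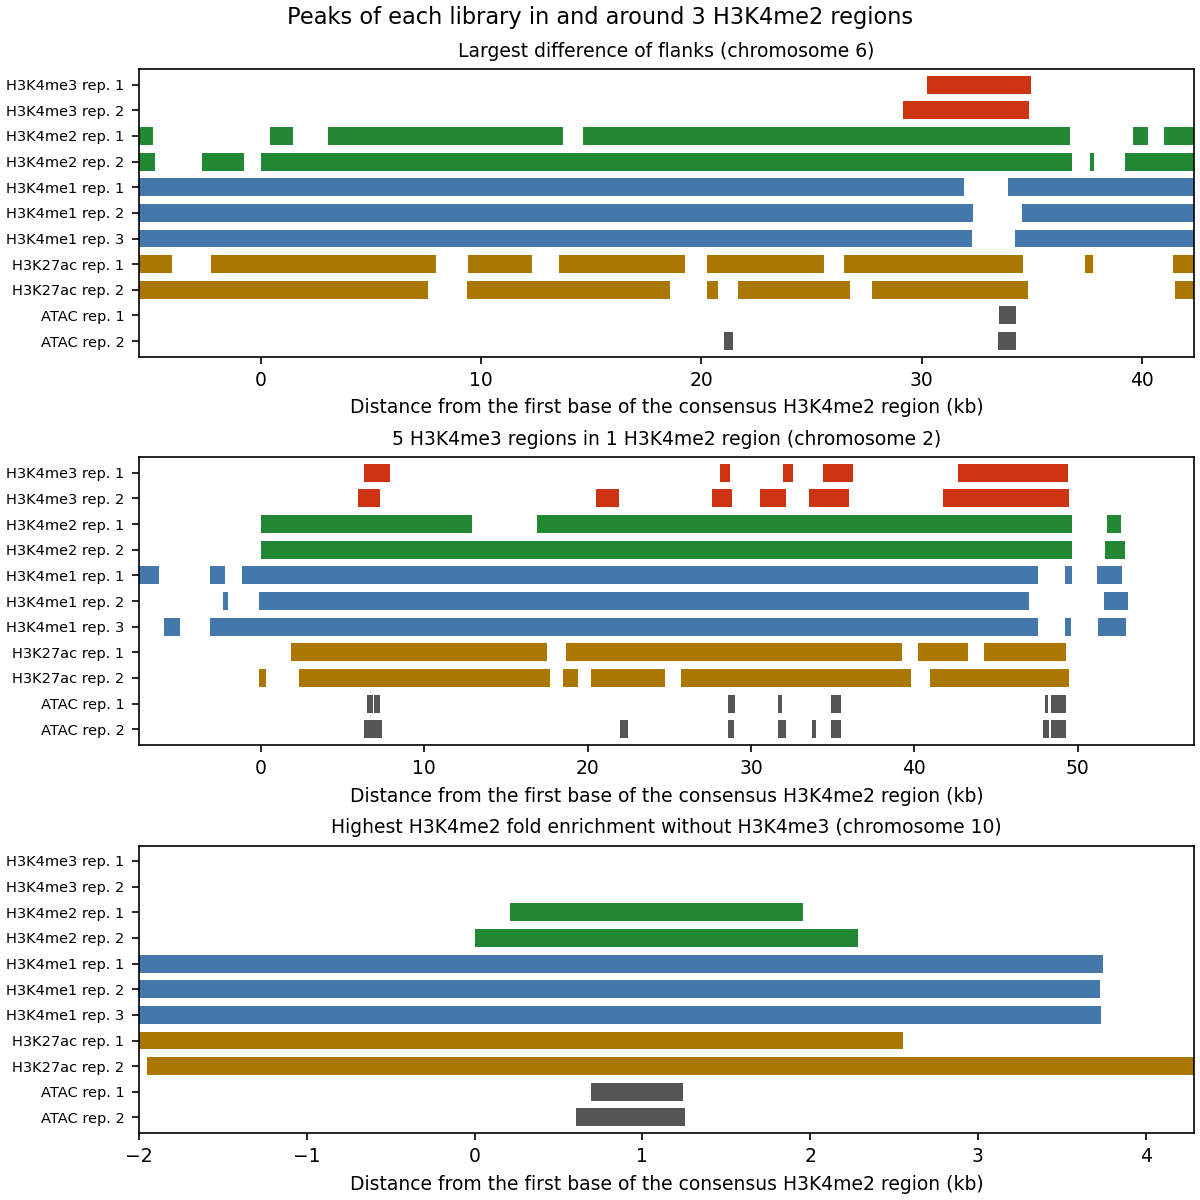
Peaks of each library (1 row each, bars to scale) in and around 3 consensus H3K4me2 regions, against the distance in kb from the region's first base. The top panel shows the left flank of 29151 bp on chromosome 6 with H3K4me3 at the right end, the middle panel the region of 49.653 kb on chromosome 2 with several H3K4me3 peaks, and the bottom panel the region of 2.287 kb on chromosome 10 with no H3K4me3 peak.

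Most H3K4me2 peaks carried no H3K4me3. The share without any was 68.7% and 62.4% for H3K4me2 replicate 1 (with H3K4me3 replicates 1 and 2) and 68.6% and 62.6% for replicate 2. The 2 H3K4me2 libraries hardly differed, and the list with more H3K4me3 peaks left fewer H3K4me2 peaks without. The mean was 65.6%, with an SD of 0.0498 over the H3K4me2 libraries and 4.31 over the H3K4me3 libraries. Though the majority by number, these peaks held the smaller part of the sequence, since 67.9% (64.0% to 71.9% over the 4 pairs) of H3K4me2 bases were in peaks that met H3K4me3.

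H3K4me2 peaks without H3K4me3 were narrow, weak and less often found again. Their median width was 738 bp ± 26.2 (SD over the 2 H3K4me2 libraries) against 3295 bp ± 84.1 with H3K4me3. The ratio was 4.46 ± 0.0440, and 2.60 at a −log10 q of at least 5. Their median fold enrichment was 2.86 ± 0.163 against 5.96 ± 0.959. In the other H3K4me2 library 81.4% ± 2.29 of them met a peak, against 99.7% ± 0.389 of those with H3K4me3. They lay a median of 20302 bp from the nearest H3K4me3 peak (16735 to 23972 bp over the 4 pairs). Of them 15.8% (13.4% to 18.4%) lay within 5 kb and 26.0% (21.65% to 30.3%) beyond 50 kb. These distances varied more with the H3K4me3 library than with the H3K4me2 library.

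The share without H3K4me3 fell with the strength and the width of the H3K4me2 peak. By quartile of H3K4me2 fold enrichment, from low to high, it was 98.3% (97.0% to 99.3% over the 4 pairs), 94.3% (90.7% to 97.3%), 62.0% (54.4% to 69.8%) and 7.66% (3.13% to 12.8%). By width it was 99.3% (98.6% to 99.7%) under 500 bp, 94.7% (90.9% to 97.9%) at 500 to 1000 bp and 70.6% (64.3% to 76.0%) at 1 to 2 kb. It was 30.5% (21.3% to 38.9%) at 2 to 4 kb, 10.8% (4.91% to 17.7%) at 4 to 8 kb and 3.15% (0.850% to 6.41%) at 8 kb or more. A wide or strong H3K4me2 peak without H3K4me3 was therefore rare, and of those over 5 kb there were 235, 89, 494 and 230 in the 4 pairs.

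Taken over all widths, every other mark was more frequent on H3K4me2 peaks with H3K4me3. A consensus ATAC site was met by 75.4% ± 0.366 of H3K4me2 peaks with H3K4me3 and 8.50% ± 0.182 of those without (SD over the 2 H3K4me2 libraries), a difference of 66.9 points ± 0.549. For H3K27ac the shares were 65.3% ± 0.105 and 24.8% ± 0.595, a difference of 40.5 points ± 0.490. For H3K4me1 they were 81.8% ± 0.179 and 61.8% ± 4.15, a difference of 20.0 points ± 3.97. Over the 4 pairs the differences ran from 64.0 to 69.7 points for ATAC, 38.7 to 42.3 for H3K27ac and 15.3 to 24.6 for H3K4me1. These spreads leave out that between the libraries of the other marks. Against ATAC replicates 1 and 2 singly, the shares were 77.2% and 84.4% with H3K4me3 and 9.93% and 24.1% without. Against the 3 single H3K4me1 libraries they were 94.7%, 82.4% and 89.2% with H3K4me3 and 78.8%, 61.8% and 68.9% without. With 2 libraries of H3K4me2, an exact test over libraries cannot reach 0.05, and none was made.

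Among narrow H3K4me2 peaks of a given width the order turned around for H3K4me1 and, from 500 bp to 2 kb, for H3K27ac. Among H3K4me2 peaks of 1 to 2 kb, 19.2% ± 2.58 with H3K4me3 met H3K27ac against 35.7% ± 1.49 without, a difference of -16.6 points ± 1.09. H3K4me1 was met by 52.2% ± 0.863 with H3K4me3 against 76.9% ± 4.67 without, a difference of -24.7 points ± 5.54. ATAC kept its direction, at 42.2% ± 0.897 against 12.3% ± 2.41, a difference of 29.9 points ± 3.31. The signs were the same in each of the 4 pairs and in each single library of the other marks, 2 of 2 for H3K27ac, 3 of 3 for H3K4me1 and 2 of 2 for ATAC.

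The differences had the same signs at 500 to 1000 bp, and those of H3K27ac and H3K4me1 were smaller in wider peaks. Under 500 bp, where 25 to 123 peaks a pair had H3K4me3, H3K27ac was met by 14.9% with H3K4me3 and 9.78% without, and the difference ran from -2.78 to 13.7 points over the 4 pairs. ATAC was met there by 1.95% and 2.13%, and H3K4me1 by 4.09% and 44.9%. At 500 to 1000 bp the differences were -9.27 points ± 0.486 for H3K27ac, -36.5 ± 6.63 for H3K4me1 and 9.39 ± 1.11 for ATAC. At 2 to 4 kb they were -0.119 ± 1.19 for H3K27ac, less than the spread between libraries, -5.31 ± 0.922 for H3K4me1 and 52.1 ± 4.35 for ATAC. In that class a threshold of 5 on −log10 q turned the difference to 2.41 points for H3K27ac and 3.26 for H3K4me1. At 1 to 2 kb the same threshold left -12.3 points for H3K27ac and -9.12 for H3K4me1. At 4 to 8 kb H3K27ac was met by 90.6% with H3K4me3 and 87.0% without, higher with it by 1.33 to 6.04 points over the 4 pairs. H3K4me1 was met by 97.3% and 98.9%, and ATAC differed by 48.0 points (40.3 to 55.8 over the 4 pairs).

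**Figure D5:**
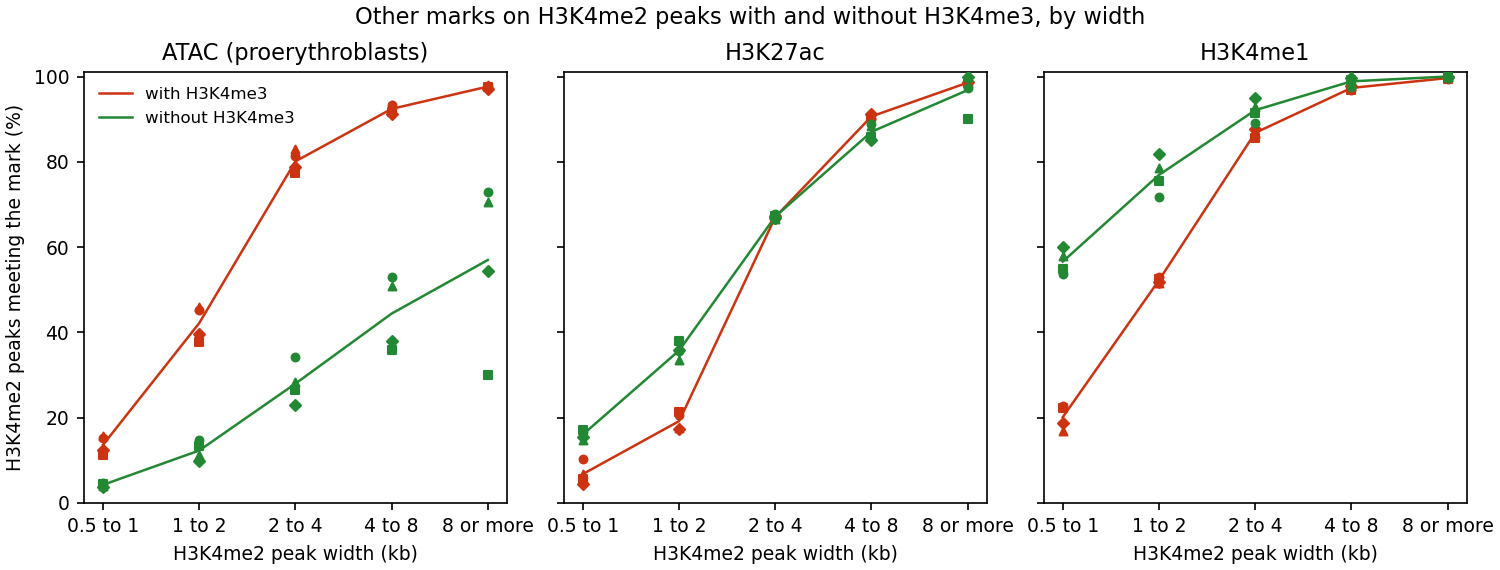
Percent of H3K4me2 peaks (y axis) that met a consensus site of ATAC, H3K27ac or H3K4me1 (panels from left to right), by width class of the H3K4me2 peak in kb (x axis), with H3K4me3 (red) and without (green). Symbols are the 4 pairs of libraries and lines their means. At 1 to 2 kb the red line is above the green for ATAC (42.2% and 12.3%) and below it for H3K27ac (19.2% and 35.7%) and H3K4me1 (52.2% and 76.9%).

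Holding width and H3K4me2 strength together gave the same signs for these 2 marks. Among peaks of 1 to 2 kb in the third quartile (from low to high) of H3K4me2 fold enrichment, 10.7% with H3K4me3 met H3K27ac (8.91% to 13.6% over the 4 pairs) against 49.3% without (45.0% to 53.0%). H3K4me1 was met by 39.7% (32.5% to 45.8%) against 84.9% (76.3% to 92.8%). ATAC sites were met by 32.9% (27.2% to 39.2%) against 19.6% (16.3% to 22.2%). In the highest quartile at this width the shares were 35.2% and 82.1% for H3K27ac, 80.9% and 98.6% for H3K4me1 and 64.4% and 38.3% for ATAC. In neither quartile did the ranges of the 4 pairs overlap for any of the 3 marks. In the second quartile the ATAC shares were both low, 5.97% and 6.71%, and their ranges overlapped. With strength held, the differences at 2 to 4 kb did not shrink for H3K27ac in the second and the third quartile, at -37.6 and -44.0 points, against -24.5 and -38.5 at 1 to 2 kb. In the highest quartile H3K27ac differed by -17.1 points at 2 to 4 kb and -47.0 at 1 to 2 kb. The H3K4me1 differences at 2 to 4 kb were -64.8, -28.3 and -3.27 points in these 3 quartiles, and all 4 pairs had these signs for both marks. ATAC differed at 2 to 4 kb by -1.12 (-6.09 to 2.68 over the 4 pairs), 20.3 (6.96 to 29.9) and 32.0 points (26.7 to 39.2). Each was below the 52.1 points found at this width without regard to strength.

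Narrow and weak H3K4me2 peaks with H3K4me3 rarely met H3K4me1 or H3K27ac. In the second quartile of fold enrichment at 1 to 2 kb, 9.07% of those with H3K4me3 (82 to 396 peaks a pair) met H3K4me1 against 74.9% of those without. H3K27ac was met by 3.01% and 27.5%.

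Of the 35821 consensus H3K4me2 regions, 12925 (36.1%) met a peak of both H3K4me3 libraries, 2810 (7.84%) of 1 and 20086 (56.1%) of neither. The regions with H3K4me3 in a single library were intermediate in median width (1906.5 bp, against 3688 bp with both and 990 bp with neither) and in ATAC, which 33.5% of them met (exact 95% interval 31.8% to 35.3%, which covers counting error only). They met H3K4me1 less often than both other classes, 59.9% (58.1% to 61.7%) against 84.2% and 65.6%.

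H3K4me2 regions without H3K4me3 in either library most often carried H3K4me1 alone. Of these 20086 regions, 7491 (37.3%) met H3K4me1 and neither H3K27ac nor ATAC, and 4152 (20.7%) met H3K4me1 and H3K27ac without ATAC. All 3 were met by 1074 (5.35%), which were the widest, with a median of 2388.5 bp. A further 6555 (32.6%) met none of the 3 and were narrow and weak, with a median width of 745 bp and fold enrichment of 2.76. Only consensus sites counted here, so a region marked in some but not all libraries of a mark was taken as not meeting it. H3K27ac without H3K4me1 was rare, in 74 regions without ATAC and 8 with it. Since ATAC came from proerythroblasts and the marks from whole liver, sites open in other liver cells were not read.

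The widest H3K4me2 regions without H3K4me3 lay almost wholly within H3K4me1. The widest, chr5:44587298-44603863, was 16.566 kb long, under H3K4me1 over 99.9%, 99.8% and 100% of its length in the 3 libraries and under H3K27ac over 76.6% and 77.7%, with 2 ATAC peaks in each replicate. It was 1 peak in H3K4me2 replicate 2 and 3 peaks in replicate 1. Next came chr15:58884409-58898017 (13.609 kb), with H3K27ac over 92.3% and 80.1%, and chr15:80657886-80670980 (13.095 kb), with H3K27ac over 45.2% and 39.9%. At chr8:125476464-125488958 (12.495 kb) H3K27ac covered 14.3% and 15.4%, and at chr9:66726812-66739097 (12.286 kb) 85.7% and 48.4%. H3K4me1 covered at least 98.1% of each of the 5 in every library, whereas H3K27ac varied widely, and the last had no ATAC peak.

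The strongest H3K4me2 regions without H3K4me3 were 2.287 to 3.2 kb long, against a median of 990 bp for all regions without, and most lay wholly under H3K4me1 and H3K27ac. At chr10:99986671-99988957 (2.287 kb) the H3K4me2 fold enrichment was 9.20 in replicate 1 and 7.47 in replicate 2, above the median of 5.96 for peaks with H3K4me3. H3K4me1 and H3K27ac covered it wholly in all 5 libraries, and each ATAC replicate had 1 peak. The fold enrichment was 8.32 and 8.08 at chr9:48180536-48183199, 9.35 and 7.00 at chr14:22584509-22586811, 8.58 and 7.77 at chr5:151443288-151445838 and 8.74 and 6.99 at chr5:107975148-107978347. H3K27ac covered all of 4 of the 5 regions in both libraries. The exception was the region on chromosome 14, at 94.7% and 17.6%, where H3K4me1 replicate 2 also covered only 89.9%. ATAC replicate 2 had a peak in each of the 5, and replicate 1 in 3 of them.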

How the data were processed

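Per the submitters' processing notes, the tools were Trimmomatic 0.32, Bowtie 1.0.1, SAMtools and MACS2, on mm9. Caller settings, control and MACS2 version were not given in the sources used here. For each library the authors deposited 1 peak list, broad lists for ChIP and narrow lists for ATAC. Per peak, the deposited lists give fold enrichment against background, −log10 of p and of q, and a score, and the narrow lists also a summit. These are the authors' own values and served to describe, rank or filter peaks within a list.

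Of all peaks, 7 lay off the autosomes, X and Y and were set aside. The input library was not used. The span of the chromosomes runs from the first to the last peak, 2568.43 Mb in all. Each H3K4me2 list was intersected with each H3K4me3 list (at least 1 bp shared), and values are means over the 4 pairs of libraries. A consensus region is a merged stretch with a peak of every library of a mark. Mark shares use consensus sites, covers use each library. Ends were matched between libraries where peaks met one to one. Values have no test except the enclosure by H3K4me1 against H3K4me2. Named regions are the 5 H3K4me2 regions with most H3K4me3. Among regions with 1 consensus H3K4me3 region, they are the 5 with the largest total flank, the 5 with the largest difference of flanks and the 3 with the highest H3K4me3 fold. Among regions without, they are the 5 widest and the 5 of highest fold. The 5 strongest H3K4me3 regions outside H3K4me2 complete them. The members, lists and rules were chosen with earlier results of these data known. Python 3.11.15, NumPy 2.4.6, pandas 2.3.3 and SciPy 1.17.1 were used, and the scripts were tested on simulated regions of known layout. Alternatives tried included a −log10 q of at least 5, equal numbers of strongest peaks, an overlap of 50% and joining peaks within 1 kb. The others were consensus regions, pairing by replicate number or title tag, and leaving out each library. Peak numbers were made equal between the 2 libraries of a mark, not between H3K4me2 and H3K4me3.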

Additional observations from a re-analysis of the deposited data

How the results depend on the processing

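No result changed sign in 112 alternative values of 11 results. Shares, lengths, the asymmetry and the width ratio cannot be negative, so only the mark differences and the enclosure difference could have changed sign. The share of H3K4me3 peaks inside H3K4me2 was 98.9% when an overlap of 50% sufficed. A −log10 q of at least 5 gave an asymmetry of 0.417, several H3K4me3 in 2.70% of H3K4me2 peaks, 53.0% without H3K4me3, a width ratio of 2.60, mark differences of 61.1 points (ATAC) and 31.8 (H3K27ac) and the same longer side in 81.5%. Equal peak numbers in the 2 libraries of each mark gave 4.36%, 68.2%, 68.7 and 42.0 points, and 78.9% for several, without, ATAC, H3K27ac and side. Joining peaks gave 5.76% with several, 64.3% without and 41.2 points for H3K27ac. Consensus regions gave an asymmetry of 0.406, 4.20% with several, 63.9% without, a width ratio of 3.45 and 67.9 points for ATAC. An overlap of 50% left 65.7% without. Leaving out each library gave 62.5% to 68.6% without H3K4me3, 64.4 to 69.4 points for ATAC and 39.1 to 42.0 for H3K27ac. The cause of these moves was not tested. Pairing libraries by replicate number (a block on the number) gave 65.6% without and 95.7% inside, and pairing by title tag 65.5% and 96.4%. For enclosure by H3K4me1 against H3K4me2, alternatives added after seeing the data gave differences of 38.0 to 52.7 points without each library and 73.3 points at a −log10 q of at least 5, so the threshold moved that difference by over 1.5 times. The same threshold and equal peak numbers, also added after seeing the data, were applied to the width classes, which are not among the 11 results. At 2 to 4 kb the threshold turned the difference from -0.119 to 2.41 points for H3K27ac and from -5.31 to 3.26 for H3K4me1. Equal peak numbers gave 1.44 and -2.96 points there. The signs at 1 to 2 kb, and those of ATAC in both classes, held. Without counts, a site missing from a shallow list cannot be told from an unmarked site.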

Other observations

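Proerythroblast ATAC summits, the points of highest signal in an accessible site, lay within H3K4me3 in 48.9% to 75.4% of cases. Of the 18441 summits of ATAC replicate 1, 67.9% lay in peaks of H3K4me3 replicate 1 and 75.4% in those of replicate 2. Of the 28980 summits of ATAC replicate 2, 48.9% and 56.2% did. Per 100 kb of sequence, H3K4me3 peaks alone in an H3K4me2 peak held 43.2 to 56.6 summits over the 8 combinations of libraries. The H3K4me2 flanks beside them held 3.40 to 7.65, and H3K4me2 peaks without H3K4me3 held 8.00 to 26.8. In each of the 8 combinations the flanks had the fewest of the 3. ATAC replicate 2, with more peaks, had over 2 times as many summits in H3K4me2 without H3K4me3 as replicate 1 in the same combination.

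The share of H3K4me2 peaks without H3K4me3 differed moderately between chromosomes. Over the 19 autosomes it ran from 59.6% on chromosome 7 to 69.9% on chromosome 1, with a median of 66.2%. The X chromosome was lower than each autosome, at 57.6% (53.2% to 62.1% over the 4 pairs), and its range overlapped that of chromosome 7 (56.2% to 62.8%). Of the 951 consensus H3K4me2 regions on X, 445 met neither H3K4me3 library. The Y chromosome had 4 consensus regions, all of which met H3K4me3.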
